A study of Mus musculus with 16 samples.

Results

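The 7 genes described here carry the cGAS–STING pathway: the DNA sensor cGAS (Cgas), the adaptor STING (listed under its older symbol Tmem173), the kinases Tbk1 and Ikbke, the transcription factor Irf3, the DNA exonuclease Trex1 and the cGAMP hydrolase Enpp1. They were chosen by name as the parts of this pathway, 7 of the 32285 genes in the count tables, and were read in single-nucleus RNA sequencing (snRNA-seq) of mouse hippocampus. At least 1 unique molecular identifier (UMI, the tag that counts captured RNA molecules) was found for 6 of them, and none for Trex1. Each of the 16 libraries came from 1 male mouse. C57BL/6 mice with an intact interferon receptor (WT) were aged 2 months and 23 days and received repeated injections of vehicle (n = 4) or of DMXAA (5,6-dimethylxanthenone-4-acetic acid), an agonist of mouse STING (n = 4). Ifnar1-/- mice (KO in the plots), which lack a subunit of the type I interferon receptor, were aged 3 months and 3 days and received vehicle (n = 4) or DMXAA (n = 4). Because genotype and age coincided, a difference between WT and Ifnar1-/- libraries cannot be told apart from a difference in age. The questions were which nucleus classes held the RNA of the components needed to sense DMXAA, and whether these genes changed with DMXAA in each genotype.

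In this pathway cGAS binds double-stranded DNA in the cytosol and makes the cyclic dinucleotide cGAMP, which STING binds at the endoplasmic reticulum. STING then moves through the Golgi and recruits TBK1, with IKKε (Ikbke) as a related kinase, and the phosphorylated transcription factor IRF3 turns on type I interferon. TREX1 removes cytosolic DNA ahead of the sensor, and ENPP1 hydrolyses cGAMP outside the cell. DMXAA binds mouse STING directly and so does not need cGAS. Interferon acts back on many cells through IFNAR1 and the JAK–STAT pathway, and microglia, the resident macrophages of the brain, are well known for carrying this pathway.

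On GRCm38, in GENCODE M21, Cgas spans chr9:78430526-78443237 on the minus strand, with the pseudogene Gm8093 on the opposite strand. Tbk1 spans chr10:121546455-121586787, Enpp1 chr10:24637914-24712159 and Ikbke chr1:131254343-131279606, each on the minus strand. Ikbke is overlapped by the antisense genes Gm28914 and Gm28913. Irf3 lies at chr7:44997648-45002848 on the plus strand and overlaps Bcl2l12 on the other strand. Trex1 (chr9:109057933-109059734) lies wholly inside Atrip (chr9:109057933-109074124) on the same strand.

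Promoter sequences from RefSeq on GRCm38 were available for 6 of the 7 genes. They were searched on both strands for an interferon-response element core (GAAANNGAA), a gamma-activated site (TTCNNNGAA) and the NF-κB sites GGGACTTTC and GGGAATTTC, over 250 bases before to 50 bases after each start site. None of these letters occurred in the windows of Cgas, Tbk1, Ikbke, Irf3, Trex1 or Enpp1. Of all 32851 promoters of this length, 8.56% held GAAANNGAA, 8.3% TTCNNNGAA, 0.353% GGGACTTTC and 0.259% GGGAATTTC. The 250 bases before the start of Cgas are shown beside those of Ifih1, the RNA sensor MDA5, because the microglial values of both genes are described below, and this pair was picked after the search because the 2 windows differ in it. Capitals mark GAAANNGAA, which stands here on the reverse strand 112 bases before the start of Ifih1. A second match, 32 bases after that start, lies outside the bases shown. Among other genes named below, Ddx58, Isg15, Cxcl10 and a window of Adar held GAAANNGAA. Samhd1 and the same window of Adar held TTCNNNGAA. Irf7 and Trim56, called higher with DMXAA over all nuclei, held none of the 4 motifs. Cgas reads from chr9:78443238-78443487 and Ifih1 from chr2:62646256-62646505, both on the minus strand, 5′ to 3′.
Cgas: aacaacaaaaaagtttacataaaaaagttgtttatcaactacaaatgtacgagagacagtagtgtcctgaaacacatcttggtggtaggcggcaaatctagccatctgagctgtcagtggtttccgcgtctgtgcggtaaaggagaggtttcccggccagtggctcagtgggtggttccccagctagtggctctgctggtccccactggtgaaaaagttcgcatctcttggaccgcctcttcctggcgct
Ifih1: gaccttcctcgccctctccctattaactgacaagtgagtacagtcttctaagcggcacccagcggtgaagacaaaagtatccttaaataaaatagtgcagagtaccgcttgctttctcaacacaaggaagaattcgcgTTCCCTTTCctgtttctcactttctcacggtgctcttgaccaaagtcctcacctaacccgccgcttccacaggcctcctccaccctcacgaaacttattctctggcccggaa

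Of 155084 deposited barcodes, 108878 nuclei were kept, 5163 to 9237 per library, with 66059561 to 93228638 UMIs per library before filtering. Pairs of libraries shared 12 to 41 barcodes (at most 0.4448% of the smaller library). Ifnar1 averaged 17.7 ± 1.78 CPM (UMI counts scaled to 1000000 per library or class; SD, n = 8) in WT and 11.6 ± 0.589 (n = 8) in Ifnar1-/- libraries (two-sided exact permutation p = 0.0001554), so 65.5% of the WT level was still counted. On this scale of library totals the median gene was also lower in Ifnar1-/- than in WT vehicle libraries (log2 −0.38 over all nuclei). That median rests on the vehicle libraries alone, and its part in the Ifnar1 difference was not tested. Nuclei fell into 13 named classes, of which 9 had enough nuclei in every group for a test. As a cluster, the 4782 microglia were enriched for all 10 markers of their list. The 308 border macrophages were split off a mixed cluster by marker UMIs after it had been seen. WT DMXAA replicate 3 stood apart from the other WT libraries: it had 13.6 CPM of Ifnar1 (others 16.98 to 19.2), 23479 CPM of the nuclear RNA Malat1 (others 53039 to 91322; Ifnar1-/- 12604 to 27890) and 80 nuclei with neutrophil markers in the macrophage cluster (other libraries 0 to 7). Its summed interferon-stimulated genes in microglia were at 3429 CPM, above the 1231 to 1305 of WT vehicle and below the 5930 to 10861 of the other WT DMXAA libraries. Where leaving it out moved a call, a printed share of called genes or an interaction described here by over 1.5 times, the value without it is given as well.

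STING RNA was found mainly in microglia. Its gene Tmem173 lies at chr18:35733679-35740554 on the minus strand of GRCm38. In the 8 vehicle libraries of both genotypes, Tmem173 averaged 71.9 ± 21.05 CPM in microglia (SD, n = 8) and ranged from 44.4 to 103.3. Border macrophages, the macrophages of the meninges and vessels, came next at 20.5 ± 22.9 CPM (n = 3, from 0 to 45.3), then fibroblasts at 3.35 ± 2.38. Every other class stayed below 2 CPM, among them astrocytes at 0.4997, oligodendrocyte precursors (OPCs) at 0.705, excitatory neurons (ENs) at 0.0955, inhibitory neurons (INs) at 0.128 and oligodendrocytes at 0.0820 CPM. No Tmem173 UMI was counted in endothelial, choroid plexus or ependymal nuclei of these libraries, where 3 counts would have been 6.20 CPM, 0.702 CPM and 2.06 CPM. The genotypes were mixed unequally by class. Of the vehicle endothelial nuclei 133 were Ifnar1-/- and 11 WT, and no WT vehicle library held 20 of them. Border macrophages had 1 WT and 2 Ifnar1-/- vehicle libraries and mural cells 1 and 4, against 4 of each for microglia. Over all 16 libraries, 666 of the 833 Tmem173 UMIs (80.0%) came from microglia, and border macrophages, with far fewer nuclei, gave 17. Such levels do not separate fewer nuclei that use a gene from less RNA in each nucleus.

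By nucleus, 291 of 2269 vehicle microglia (12.8%, 95% Clopper-Pearson interval 11.5 to 14.3%) held at least 1 Tmem173 UMI, at a median of 1846 UMIs per nucleus. ENs, a class not known for STING, gave 0.0848% at a median of 8622.5 UMIs, so the microglial share stood far above that background. With every nucleus thinned to 1000 UMIs, which left out 71 microglia, the shares were 6.73% and 0.0128%. Intervals and floors cover counting error only.

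cGAS RNA was likewise highest in microglia, but it was also counted in ENs. Microglial Cgas averaged 39.8 ± 11.4 CPM in vehicle libraries (n = 8, from 21.03 to 62.4). In ENs it was 1.43 ± 0.475 CPM (n = 8, from 0.941 to 1.93), below the lowest microglial library. Fibroblasts had 1.30, choroid plexus 1.21, INs 0.739, OPCs 0.421, oligodendrocytes 0.338 and astrocytes 0.240 CPM, and mural cells (6.80) and border macrophages (5.03, n = 3) rested on few nuclei. Because ENs made up 46763 of the nuclei and were deep, they gave 603 of the 1213 Cgas UMIs (49.7%), more than the 436 (35.9%) of microglia. A Cgas UMI was seen in 7.14% of vehicle microglia (interval 6.11 to 8.28%) and 1.16% of ENs, and in 3.59% and 0.145% after thinning to 1000 UMIs. For comparison, vehicle astrocytes gave 0.0824% (0.0% thinned), oligodendrocytes 0.0817% (0.0357%) and INs 0.493% (0.0583%). Nuclei of unnamed clusters gave 0.229% (0.237% thinned), so the thinned EN share did not stand above every other. Within ENs, Cgas was at 2.06 ± 0.594 CPM in dentate granule cells, 1.76 ± 0.621 in CA1, 1.57 ± 2.10 in CA3 and 0.696 ± 0.518 in subiculum and cortex (SD, n = 8 each). The library values of subiculum and cortex (up to 1.39 CPM) lay below those of dentate granule cells (from 1.44), while every other pair of regions overlapped.

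The kinase Tbk1, which phosphorylates both STING and IRF3, was counted in every class. Border macrophages (178.6 ± 43.0 CPM, n = 3) and microglia (149.7 ± 20.1, n = 8) led, and the other 11 classes lay between 34.8 CPM in ependymal cells and 74.8 in choroid plexus. These means mix the genotypes unequally, with 1 WT and 2 Ifnar1-/- libraries for border macrophages and 4 of each for microglia. Microglial Tbk1 was at 164.7 CPM in WT and 134.8 in Ifnar1-/- vehicle libraries. Neurons gave 46.2 (EN) and 40.4 (IN) CPM. Ikbke, the kinase IKKε, had another order. It was highest in ependymal cells (48.5 ± 16.1 CPM, n = 6), the ciliated lining of the ventricles, followed by fibroblasts (27.3 ± 6.93) and astrocytes (13.3 ± 1.85). Microglia held 3.71 ± 2.56 CPM of it, and no UMI was counted in border macrophages or Cajal-Retzius neurons of the vehicle libraries. With DMXAA border macrophages gave 7 UMIs, all in WT DMXAA replicate 3, and Cajal-Retzius neurons 1.

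Irf3, the factor that TBK1 activates, was counted in all 13 classes, from 9.52 CPM in ENs to 52.3 ± 29.3 in choroid plexus, with 45.8 ± 24.5 in microglia and 44.5 in fibroblasts. These wide spreads hold the WT and Ifnar1-/- libraries together, which differed for this gene as described below. Enpp1, which degrades extracellular cGAMP, belonged mainly to fibroblasts at 166.9 ± 56.9 CPM (n = 8), giving 1460 of its 2962 UMIs. Oligodendrocytes followed among the larger classes at 20.1 ± 5.70 CPM and 854 UMIs, while microglia had 7.56 ± 5.71. Trex1 had 0 UMIs in all 16 libraries, whereas its host gene Atrip had 451 to 1197 counts per library. Since a read inside Trex1 also lies inside Atrip on the same strand, these files say nothing on the level of Trex1.

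**Figure D1:**
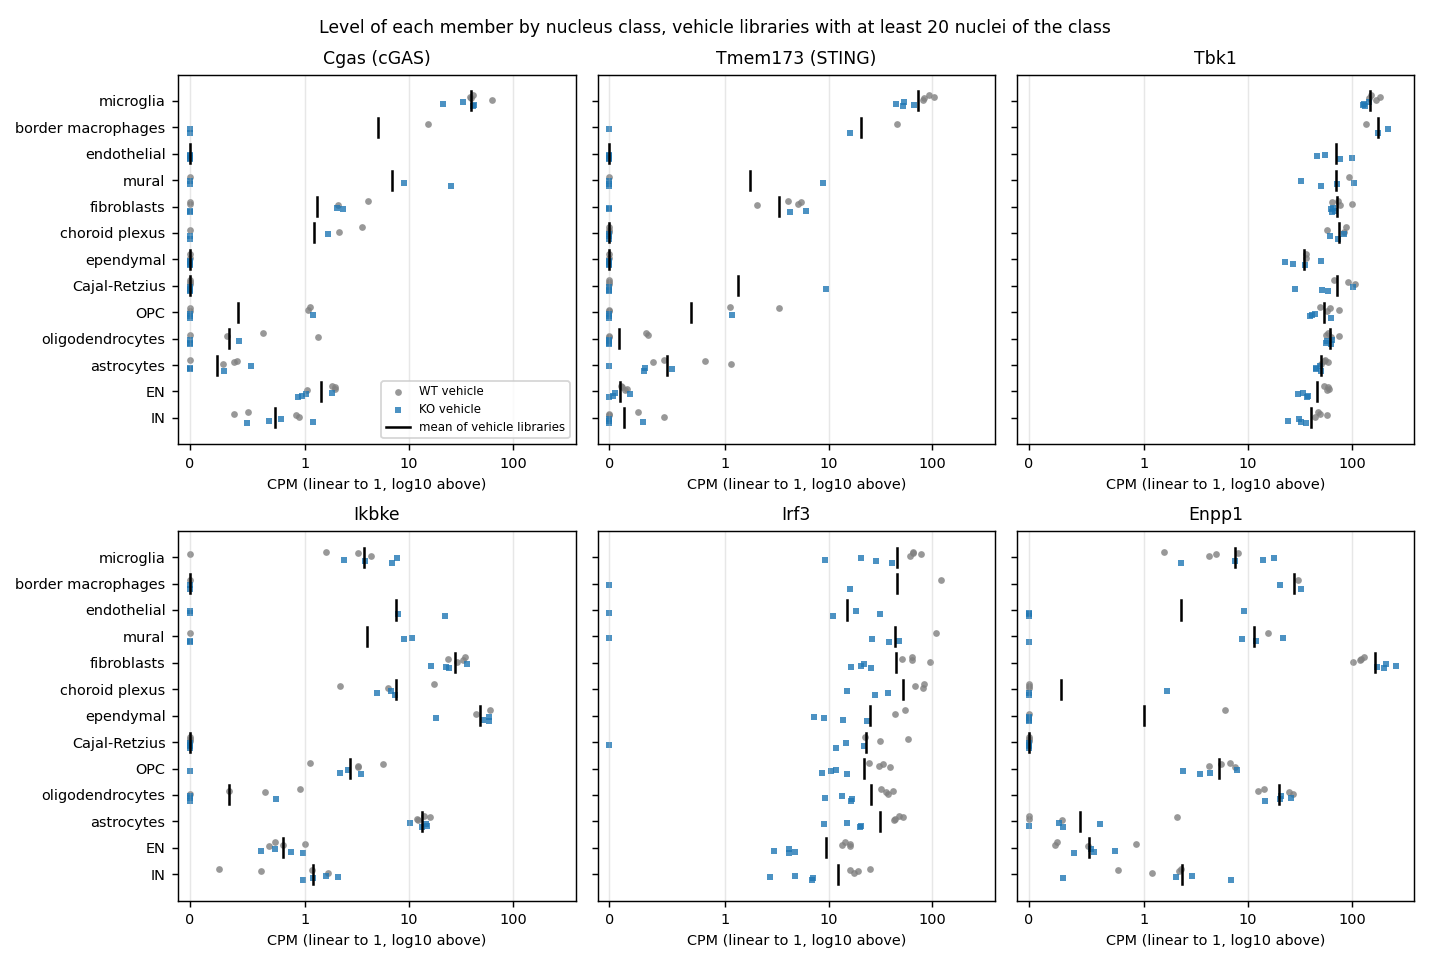
Level of the 6 counted genes by nucleus class in vehicle libraries, in CPM on an axis that is linear to 1 and log10 above it, with 1 point per library (grey WT, blue Ifnar1-/-) and a black bar at their mean. Microglial points of Tmem173 (44.4 to 103.3 CPM) and Cgas (21.03 to 62.4) lie above those of neurons, astrocytes and oligodendrocytes, Tbk1 and Irf3 are spread over all classes, and Enpp1 is highest in fibroblasts.

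The order of the classes was tested between neighbours within the same library (two-sided exact sign-flip permutation test on log2 CPM with a prior count of 1). No neighbouring pair of any gene passed adjustment over all pairs (smallest adjusted p = 0.0805). The design limits the upper ranks further: microglia and border macrophages shared 3 vehicle libraries, for which the smallest p is 0.25, although Tmem173 was higher in microglia in 3 of 3. Cgas was higher in microglia than in mural cells in 5 of 5 libraries (exact p = 0.0625, the smallest possible), and Enpp1 was higher in fibroblasts than in border macrophages in 3 of 3 (exact p = 0.25, the smallest possible). The prior count lifts shallow classes, so that for low ranks the sign of this difference could oppose the order by CPM.

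Across the 13 classes, the genes whose vehicle levels most resembled Tmem173, of 12770 genes with at least 20 CPM in 1 class, were Slc11a1 (Pearson r = 0.9944), Gm34280 (0.9914) and Psd4 (0.9906). For Cgas they were Gm3002 (0.9913), Tg (0.985) and Plcb2 (0.9848). Both genes were far higher in microglia than in most classes, so r rests largely on that class. The classes also share libraries, so these are descriptions. Slc11a1, an ion transporter of phagocytes, was at 80.9 CPM in microglia and 32.6 in border macrophages.

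In WT mice, DMXAA changed none of the 6 genes past the test. Each gene was tested where its counts passed the filter, in 33 combinations of gene with 1 of 9 classes or with all nuclei together. Counts summed per library and class were tested with edgeR's quasi-likelihood test, and a call needed a Benjamini-Hochberg adjusted p under 0.05 over all genes of that class and an absolute log2 fold change over 0.1. Of the 33, 0 were called and 3 had an unadjusted p under 0.05, with 15 estimates above and 18 below 0, and DESeq2 and limma-trend called 0 too. The background was low as well: the same rule called 1.92% of genes in microglia, 0.506% in choroid plexus, 0.492% in all nuclei, 0.255% in astrocytes, 0.155% in OPCs, 0.119% in ENs, 0.033% in oligodendrocytes and 0.0% in fibroblasts, Cajal-Retzius neurons and INs. Without WT DMXAA replicate 3 these shares rose to 8.45% in microglia, 2.57% in oligodendrocytes, 1.36% in all nuclei, 1.23% in astrocytes, 0.653% in OPCs, 0.476% in fibroblasts, 0.273% in ENs and 0.0574% in INs, and stayed at 0.0% in Cajal-Retzius neurons. Choroid plexus did not hold that replicate.

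The sensor had the lowest p-values. In WT microglia Cgas was at 40.8, 38.7, 39.4 and 62.4 CPM with vehicle and at 86.1, 81.0, 39.6 and 57.6 CPM with DMXAA. The groups overlapped, since vehicle replicate 4 was above DMXAA replicates 3 and 4. The log2 fold change was 0.54 ± 0.24 (SE; 95% interval 0.03 to 1.06; edgeR adjusted p = 0.455). Without WT DMXAA replicate 3 it was 0.71 ± 0.22 with an adjusted p of 0.0354 (edgeR), which made it the 1 call among the members, where the rule called 8.45% of all genes in microglia. Over all nuclei Cgas was at 2.14, 2.08, 2.22 and 2.01 CPM with vehicle and 3.63, 3.07, 2.33 and 2.47 CPM with DMXAA. These groups did not overlap, but how often this held over all genes was not counted. The log2 fold change was 0.51 ± 0.16 (edgeR adjusted p = 0.427). The 4 neutrophil markers moved with this sum, at 9.80 to 11.4 CPM in WT vehicle and 18.2 to 36.01 in WT DMXAA libraries, and their part in it was not tested. In ENs the Cgas change was 0.29 ± 0.24.

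STING itself did not pass the test in WT microglia. Tmem173 was at 92.6, 103.3, 82.0 and 80.8 CPM with vehicle and at 87.5, 87.3, 22.8 and 85.8 CPM with DMXAA. Replicate 3 was the low value, and the other 3 DMXAA libraries lay within the vehicle range. The log2 fold change was −0.34 ± 0.27 (interval −0.92 to 0.23; edgeR adjusted p = 0.797), and −0.04 ± 0.17 without that replicate. Microglia made up 4.24 to 4.84% of nuclei in WT vehicle and 4.2 to 5.78% in WT DMXAA libraries.

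Among the kinases, microglial Tbk1 was at 153.8, 185.5, 147.7 and 171.6 CPM with vehicle and 176.4, 181.0, 127.2 and 164.9 CPM with DMXAA, a log2 fold change of −0.00 ± 0.14 (interval −0.30 to 0.30). Its groups overlapped in each of the 10 tests. Ikbke in fibroblasts read 34.5, 23.4, 32.7 and 28.9 CPM with vehicle and 11.9, 24.2, 25.1 and 11.9 with DMXAA (log2 −0.49 ± 0.37, interval −1.26 to 0.27). In astrocytes it was level at 11.8 to 15.7 CPM with vehicle and 12.4 to 14.8 with DMXAA (0.12 ± 0.19).

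Microglial Irf3 was at 64.4, 64.5, 77.1 and 61.0 CPM in WT vehicle and at 83.3, 74.6, 17.997 and 76.4 CPM in WT DMXAA libraries. The DMXAA values lay near or above the vehicle values except in replicate 3, whose 17.997 CPM fell among the Ifnar1-/- libraries (9.35 to 47.9 CPM). The log2 fold change was −0.08 ± 0.35 with replicate 3 and 0.24 ± 0.21 without it. Without it the estimates lay above 0 in each of the other 6 classes that could be refitted, at 0.17 to 0.48, and none was called. Malat1 moved with them, at 53039 to 70655 CPM over all nuclei in WT vehicle and 74484 to 91322 in WT DMXAA replicates 1, 2 and 4, and its part in the result was not tested. Over all nuclei the same replicate had 5.003 CPM of Irf3 against 20.7 to 28.8 CPM in the other 7 WT libraries. Enpp1 in fibroblasts was at 131.8, 122.5, 120.7 and 103.3 CPM with vehicle and 128.3, 143.0, 118.6 and 273.0 CPM with DMXAA. The highest value rests on 46 UMIs, and the log2 fold change was 0.46 ± 0.21 (edgeR adjusted p = 0.838).

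**Figure D2:**
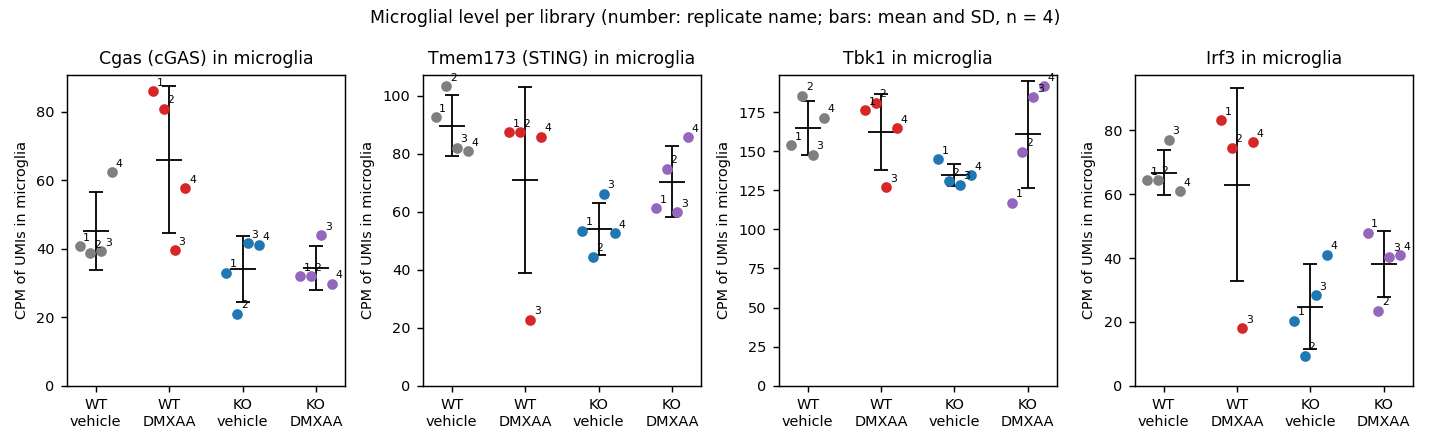
Cgas, Tmem173, Tbk1 and Irf3 in microglia in CPM, with 1 point per library, numbered by replicate name, in the 4 groups (KO is Ifnar1-/-) and bars for the group mean and SD (n = 4). WT DMXAA replicate 3 is the lowest WT library for Tmem173 (22.8 CPM) and Irf3 (17.997 CPM), and Cgas of WT DMXAA replicates 1 and 2 (86.1 and 81.0 CPM) lies above all others.

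Without the interferon receptor, DMXAA likewise moved none of the 6 genes past the test. In Ifnar1-/- mice 0 of 33 tests were called by edgeR, DESeq2 or limma-trend, and 3 had an unadjusted p under 0.05. The same rule called 0.0% of all genes in each of the 9 classes and in all nuclei, where 120 to 1182 genes had an unadjusted p under 0.05 by edgeR and DESeq2 called 6 genes, all in the sum over all nuclei. With WT DMXAA replicate 3 out of the fit edgeR called 0.958% of genes in microglia (11 higher and 76 lower), 0.419% in astrocytes, 0.0503% in OPCs and 0.00491% in all nuclei, still 0.0% in the other 5 classes refitted, and none of the members. Microglial Cgas was at 33.0, 21.03, 41.6 and 41.1 CPM with vehicle and 32.0, 32.1, 44.0 and 29.8 CPM with DMXAA (log2 −0.02 ± 0.28, interval −0.62 to 0.57). Tmem173 was at 53.4, 44.4, 66.2 and 52.5 CPM with vehicle and 61.2, 74.8, 59.8 and 85.6 CPM with DMXAA. Its groups overlapped, and the log2 fold change was 0.34 ± 0.30 (interval −0.28 to 0.97).

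The estimates for Irf3 lay above 0 in all 8 tested classes and in all nuclei of Ifnar1-/- mice, at 0.07 to 0.78 on the log2 scale, none of them called. The highest was in fibroblasts, with 22.1, 20.7, 16.6 and 25.5 CPM after vehicle and 33.0, 32.2, 54.2 and 30.4 CPM after DMXAA. These groups did not overlap (0.78 ± 0.37; edgeR adjusted p = 0.950). Malat1 moved with it, at 12604 to 20335 CPM in Ifnar1-/- vehicle and 17687 to 27890 in Ifnar1-/- DMXAA libraries, and its part in the result was not tested. Tbk1 in microglia was at 144.9, 130.9, 128.6 and 134.7 CPM with vehicle and 117.2, 149.6, 184.7 and 191.7 CPM with DMXAA (0.23 ± 0.15). Along with Irf3 in fibroblasts, the tests at an unadjusted p under 0.05 were Tbk1 over all nuclei (40.5 to 47.5 CPM; 0.16 ± 0.06; edgeR adjusted p = 0.765) and in ENs (34.7 to 41.7 CPM; 0.17 ± 0.08; edgeR adjusted p = 0.784). Enpp1 in fibroblasts was at 213.2, 265.2, 173.4 and 205.1 CPM with vehicle and 184.9, 191.5, 156.6 and 134.4 CPM with DMXAA, overlapping groups with a log2 fold change of −0.38 ± 0.19.

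The difference between the DMXAA effects of the genotypes was tested as an interaction and called for 0 of 33, with 3 at an unadjusted p under 0.05 (edgeR; DESeq2 and limma-trend also called 0). The background was 0.224% of genes in microglia, 0.0796% in all nuclei, 0.0413% in OPCs, 0.0375% in astrocytes, 0.0282% in ENs and 0.0% in fibroblasts, choroid plexus, Cajal-Retzius neurons, oligodendrocytes and INs. Without WT DMXAA replicate 3 it was 0.826% in microglia, 0.275% in all nuclei, 0.147% in astrocytes, 0.0804% in OPCs, 0.0502% in ENs and 0.00821% in oligodendrocytes, with 0 members called. Enpp1 in fibroblasts differed by 0.84 ± 0.29 on the log2 scale (edgeR adjusted p = 0.616) and Cgas over all nuclei by 0.57 ± 0.23 (edgeR adjusted p = 0.649), each as the WT minus the Ifnar1-/- effect. In microglia this difference was 0.57 ± 0.37 for Cgas and −0.69 ± 0.40 for Tmem173, and without that replicate 0.76 ± 0.35 and −0.36 ± 0.26. The 2 contrasts use different animals, so their values stand side by side here without a shared control.

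**Figure D3:**
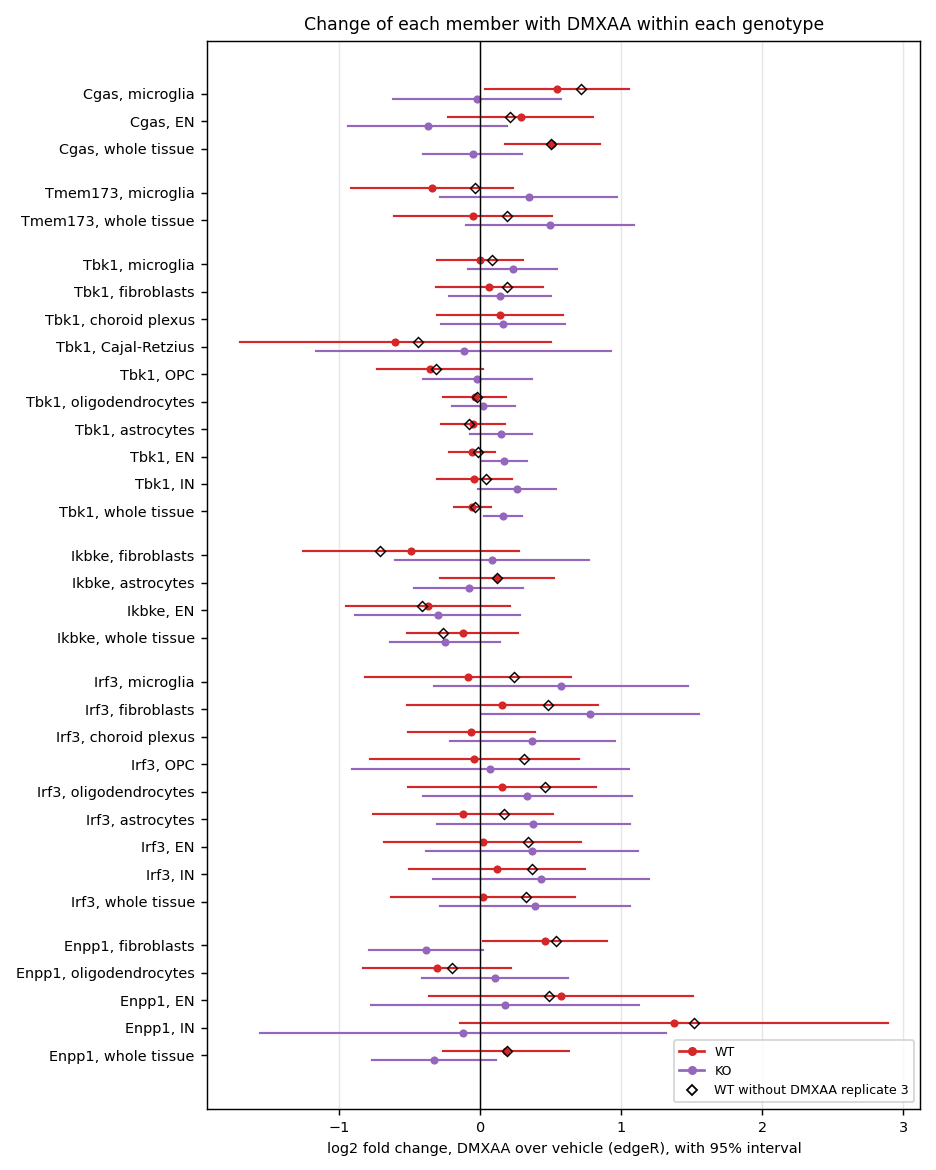
Log2 fold change, DMXAA over vehicle, for each gene and class tested, in WT (red) and Ifnar1-/- mice (purple, KO), with lines for the 95% interval and open diamonds for WT without DMXAA replicate 3. Most intervals span 0, and none of the changes drawn as a filled point was called.

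More of the tests passed between the genotypes at rest. Between Ifnar1-/- vehicle and WT vehicle, 15 of the 33 tests were called (16 at an unadjusted p under 0.05). Among these calls were all 9 tests of Irf3. This must be read against a high background: the rule called 12.8% of all genes in microglia, 12.9% in fibroblasts, 28.6% in choroid plexus, 1.13% in Cajal-Retzius neurons, 23.4% in OPCs, 29.2% in oligodendrocytes, 30% in astrocytes, 49.0% in ENs, 39.3% in INs and 48.8% over all nuclei. With WT DMXAA replicate 3 out of the fit, which enters this contrast through the shared spread and scaling, 16 of the 31 tests refitted were called, and the background moved by over 1.5 times to 30.7% in microglia, 20.8% in fibroblasts, 45.9% in oligodendrocytes and 6.27% in Cajal-Retzius neurons. Genotype cannot be told apart from age in this contrast. It also depends on the scaling. With TMM scaling factors, the median log2 difference of all genes was −0.08 in ENs, −0.04 in INs and −0.06 over all nuclei, but scaling by library totals moved it to −0.54, −0.40 and −0.38, and to −0.05 to −0.21 in the other classes but Cajal-Retzius neurons (0.03). The share of called genes that were higher in Ifnar1-/- mice then went from 47.5 to 13.1% in ENs, 45.5 to 19.6% over all nuclei, 49.9 to 16.8% in INs and 52.2 to 32.8% in microglia.

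Irf3 was lower in Ifnar1-/- mice in each of its 8 tested classes and over all nuclei, under both scalings. Over all nuclei it was at 20.7, 23.4, 21.001 and 22.2 CPM in WT vehicle and at 7.001, 4.97, 8.67 and 8.46 CPM in Ifnar1-/- vehicle libraries. The groups were far apart, with a log2 difference of −1.27 ± 0.32 (edgeR adjusted p = 0.00503). By class the log2 difference ran from −1.63 in fibroblasts (67.8 to 21.2 CPM) to −1.23 in oligodendrocytes (36.9 to 14.1 CPM), with −1.29 ± 0.40 in microglia (66.7 to 24.8 CPM; edgeR adjusted p = 0.0414). In choroid plexus it was 77.6 against 26.9 CPM (edgeR adjusted p = 0.000260). The call in microglia was lost in 10 of the fits that left out 1 library (edgeR adjusted p 0.0525 to 0.118), while its direction held. Bcl2l12, which overlaps Irf3 on the other strand, was at 0.47 to 1.77 CPM over all nuclei. Malat1 moved with Irf3, at 53039 to 91322 CPM in the WT libraries other than DMXAA replicate 3, at 23479 in that replicate and at 12604 to 27890 in Ifnar1-/- libraries, and the same order held for Son, a nuclear speckle protein, at 453 to 571, 244.7 and 245 to 356 CPM. Their part in the Irf3 difference was not tested.

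**Figure D4:**
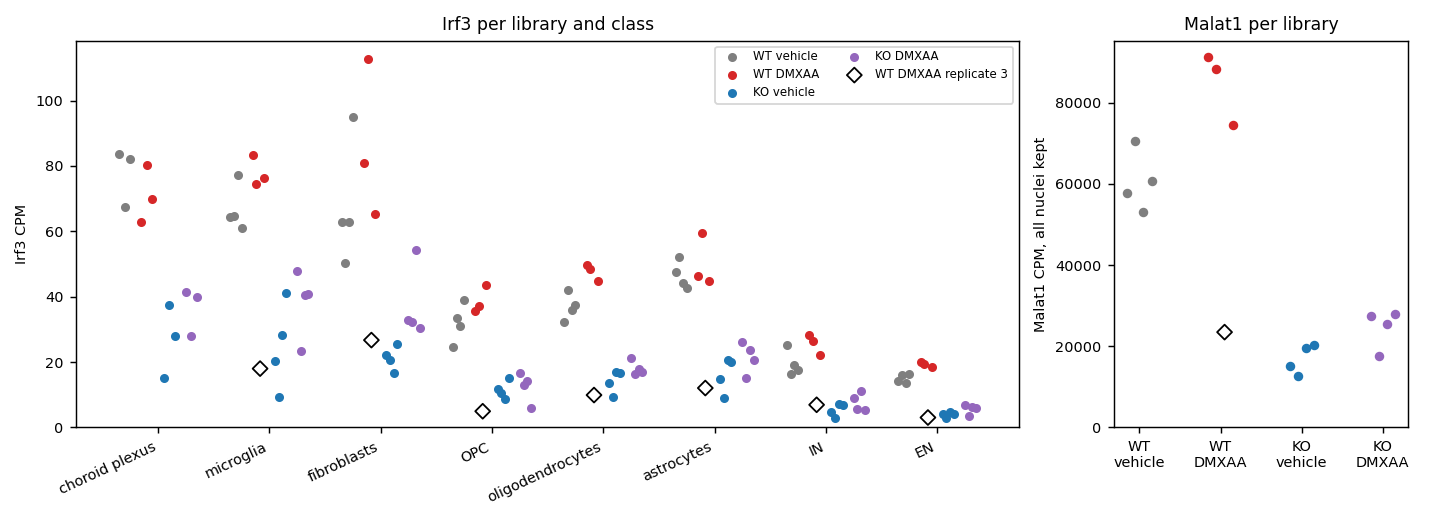
Irf3 in 8 classes and Malat1 over all nuclei, both in CPM, with 1 point per library in the 4 groups (KO is Ifnar1-/-) and an open diamond for WT DMXAA replicate 3. The other WT points lie above all Ifnar1-/- points in each class but fibroblasts, where 1 Ifnar1-/- DMXAA library (54.2 CPM) passes the lowest WT vehicle library (50.4 CPM), and that replicate lies among or near the Ifnar1-/- points.

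Enpp1 differed in the opposite direction. In fibroblasts the Ifnar1-/- vehicle libraries (173.4 to 265.2 CPM) all lay above WT vehicle (103.3 to 131.8 CPM), a log2 difference of 0.87 ± 0.20 (edgeR adjusted p = 0.0106). Over all nuclei it was at 3.57 against 6.44 CPM on average, a difference of 1.18 ± 0.21 (edgeR adjusted p = 0.000785). Fibroblast markers moved with this sum, at 176.8 to 192.2 CPM in WT vehicle and 238.0 to 300.8 in Ifnar1-/- vehicle libraries, so it mixes the share of fibroblasts with the level within them. Tbk1 was lower in ENs of Ifnar1-/- mice, with 53.7, 59.2, 60.5 and 57.7 CPM in WT and 34.01, 30.3, 37.7 and 36.7 CPM in Ifnar1-/- vehicle libraries. On the TMM scale that was −0.27 ± 0.08 (edgeR adjusted p = 0.00995) and by library totals −0.74, so the size of this difference rests on the scaling. In INs it was −0.31 and not called (edgeR adjusted p = 0.0701), but −0.30 and called without WT DMXAA replicate 3 (edgeR adjusted p = 0.0382).

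STING was lower in Ifnar1-/- microglia at rest, 54.1 against 89.7 CPM on average, with groups that did not overlap (44.4 to 66.2 and 80.8 to 103.3 CPM), but the difference of −0.60 ± 0.29 was not called (edgeR adjusted p = 0.161). With WT DMXAA replicate 3 out of the fit it was −0.57 ± 0.18 and called (edgeR adjusted p = 0.0181). Malat1 in microglia moved with it, at 45055 to 60827 CPM in WT vehicle, 10072 to 17188 in Ifnar1-/- vehicle and 29829 in WT DMXAA replicate 3, and its part in the result was not tested. The sum over all nuclei was called at 1.72 against 0.803 CPM (−0.77 ± 0.28; edgeR adjusted p = 0.0299), a call lost in 6 of the fits without 1 library. Microglia were 4.24 to 4.84% of nuclei in WT vehicle and 3.58 to 4.07% in Ifnar1-/- vehicle libraries, so the sum mixes both differences. Microglial Cgas (45.3 against 34.2 CPM; −0.29 ± 0.27) and Tbk1 (165 against 135 CPM; −0.17 ± 0.15) were not called. Ikbke over all nuclei was called at 0.69 ± 0.18 (edgeR adjusted p = 0.00705) with overlapping groups (1.97 to 2.63 and 2.6004 to 3.30 CPM), and lost the call by library totals. Within the classes tested for it, Ikbke was not called: 13.4 against 13.2 CPM in astrocytes, 29.9 against 24.7 in fibroblasts and 0.809 against 0.802 in ENs, WT vehicle first. Markers of classes rich in Ikbke moved with the sum, astrocyte markers at 2100 to 2952 CPM in WT vehicle and 3623 to 4527 in Ifnar1-/- vehicle and ependymal markers at 17.5 to 66.6 and 49.6 to 158.4, and their part in it was not tested.

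The response to DMXAA was next set beside the level of STING in each class, using the summed CPM of 39 interferon-stimulated genes. In WT microglia, the class with the most Tmem173, this sum went from 1262 to 6600 CPM on average, 5.23-fold (6.07-fold without replicate 3). Among classes with little or no Tmem173, the ratio was 4.82 in OPCs, 4.23 in astrocytes, 3.97 in Cajal-Retzius neurons, 3.24 in ENs and 2.74 in oligodendrocytes, with WT groups that did not overlap. The Cajal-Retzius ratio rested largely on WT DMXAA replicate 1, at 1088 CPM. DMXAA replicates 2 and 3 were at 269 and 333 CPM, and WT vehicle libraries at 168, 150 and 108 CPM. EdgeR called 0.0% of all genes in that class in WT mice. In fibroblasts (1.96) and INs (1.68) the WT groups overlapped, with the lowest DMXAA library at 1262 and 102.8 CPM and the highest vehicle library at 1280 and 115.9 CPM. In choroid plexus, where Tmem173 had 0 UMIs in every library, WT vehicle libraries were at 491, 404 and 538 CPM and WT DMXAA libraries at 2099, 945 and 1060 CPM, a ratio of 2.86. This ratio leaves out replicate 3, which had too few choroid plexus nuclei. Without replicate 3 the ratio was 5.67 in OPCs, 4.96 in astrocytes, 4.78 in Cajal-Retzius neurons (2 DMXAA libraries) and 3.77 in ENs. It was 3.23 in oligodendrocytes, 2.26 in fibroblasts and 1.90 in INs. Border macrophages, second in Tmem173, had 1 library in each WT group, with sums of 3152 (vehicle) and 3526 CPM (DMXAA). Their WT ratio of 1.12 was below their 1.48 in Ifnar1-/- mice. Their DMXAA value came from replicate 3. In Ifnar1-/- mice the ratio was 1.10 in microglia (732 to 808 CPM) and between 0.834 and 1.48 in all classes. By gene, edgeR called 28 of the 31 tested interferon-stimulated genes higher in WT microglia, 19 of 27 in astrocytes, 13 of 28 in ENs, 8 of 15 in OPCs, 4 of 10 in choroid plexus, 3 of 13 in oligodendrocytes and none in fibroblasts (0 of 23, with 19 at an unadjusted p under 0.05; 6 without replicate 3) or INs (0 of 13, with 5 at an unadjusted p under 0.05; 1 without it). As given above, the rule called 1.92% of all genes in microglia, 0.255% in astrocytes and 0.119% in ENs. It called 0.155% in OPCs, 0.506% in choroid plexus and 0.033% in oligodendrocytes. The count filter ran over all 4 groups, so genes could enter these tests through WT DMXAA libraries alone. In Ifnar1-/- mice no interferon-stimulated gene was called in any class by edgeR, DESeq2 or limma-trend. There 0 to 3 per class had an unadjusted p under 0.05. Low counts left little room for some calls there, as for Isg15 in ENs (0.0616 CPM with vehicle, 0.269 with DMXAA).

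**Figure D5:**
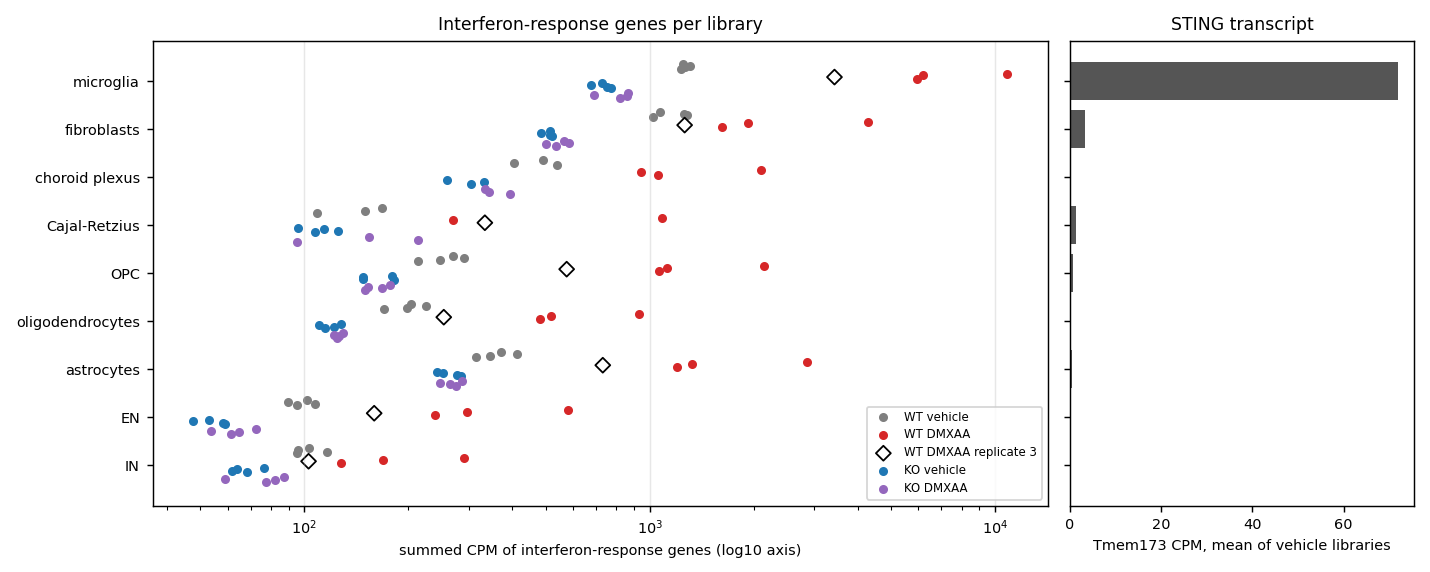
Left, summed CPM of the interferon-stimulated genes on a log10 axis for each tested class, with 1 point per library in the 4 groups (KO is Ifnar1-/-) and an open diamond for WT DMXAA replicate 3. Right, mean Tmem173 CPM of the same classes in vehicle libraries, which is 71.9 in microglia and 0 in choroid plexus, while WT DMXAA points lie to the right of WT vehicle points in both.

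The wider pathway was read from 72 further genes in 8 lists. In WT microglia 5 of the 42 tested were called, all higher, against 1.92% of all genes (9 without replicate 3, against 8.45%), with a median log2 fold change of 0.15 over the 42 and 0.02 over all genes. By list, 3 of 9 genes listed under DNA sensors and DNA handling were called: Ifi204, Samhd1 and Adar, the last an RNA editing enzyme. Of the parallel RNA pathways 2 of 3 genes were called. None was called of 4 cGAS regulators, 2 genes of cyclic dinucleotide transport, 7 of STING traffic, 10 kinase adaptors or 7 transcription factors, and none of the product genes was abundant enough to test. Without WT DMXAA replicate 3 the cGAS regulator Trim56 was called in microglia (0.73 ± 0.21; edgeR adjusted p = 0.0284, 0.0719 with it). All 5 are known as interferon-inducible genes. In Ifnar1-/- mice no list gene was called by edgeR, DESeq2 or limma-trend, with 0 to 2 per class at an unadjusted p under 0.05. Low counts left little room for some calls there, as for microglial Ifi204 (0.584 CPM with vehicle, 0.0 with DMXAA). For the interaction edgeR called none, with 6 of 42 in microglia at an unadjusted p under 0.05, where DESeq2 called 1. Leaving out WT DMXAA replicate 3 brought calls: in microglia the WT effect then exceeded the Ifnar1-/- effect by 2.07 for Ddx58 (edgeR adjusted p = 0.0073), by 2.15 for Ifih1 (edgeR adjusted p = 0.0222) and by 1.33 for Adar (edgeR adjusted p = 0.029) on the log2 scale. With all 4 libraries the differences were 1.82, 1.99 and 1.47 (edgeR adjusted p = 0.159, 0.153 and 0.113). Ddx58 in OPCs, astrocytes and all nuclei and Irf7 over all nuclei were called for the interaction without that replicate as well (edgeR adjusted p 0.00335 to 0.0271).

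Ifi204, a DNA sensor of the p200 family, had the highest fold among them. In WT microglia it was at 4.71, 17.7, 9.85 and 4.25 CPM with vehicle and at 675.9, 393.7, 84.0 and 222.5 CPM with DMXAA (log2 5.21 ± 0.61; edgeR adjusted p = 0.000337), and microglia held 1 UMI of it over the 8 Ifnar1-/- libraries. The sum over all nuclei held 11 in Ifnar1-/- vehicle and 19 in Ifnar1-/- DMXAA libraries. Samhd1, a dNTPase that limits cytosolic DNA, went from 98.5 to 183.9 CPM on average (0.91 ± 0.22; edgeR adjusted p = 0.0365), with DMXAA replicate 3 (110.4 CPM) close to the highest vehicle library (108.3 CPM). Adar, the RNA editing enzyme ADAR1, which overlaps Chrnb2, rose from 55.1 to 119.6 CPM (1.16 ± 0.22; edgeR adjusted p = 0.00836), and its highest library was DMXAA replicate 3 at 147.6 CPM.

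The cytosolic RNA sensors rose in several classes. Ddx58 (RIG-I) in WT microglia was at 28.3, 35.5, 39.4 and 29.8 CPM with vehicle and 218.7, 123.8, 64.8 and 116.6 CPM with DMXAA (1.98 ± 0.28; edgeR adjusted p = 0.000656). It was called as well in OPCs (1.87), astrocytes (1.64), choroid plexus (1.55) and over all nuclei (1.39). Without WT DMXAA replicate 3 it was called in oligodendrocytes (1.96; edgeR adjusted p = 0.0364, 0.514 with it) and ENs (1.29; edgeR adjusted p = 0.0330, 0.352 with it) too. Ifih1, whose promoter is shown above, was at 29.8, 24.2, 11.5 and 15.6 CPM with vehicle and 129.8, 63.5, 52.8 and 69.7 CPM with DMXAA in microglia (1.96 ± 0.32; edgeR adjusted p = 0.00201) and was called in astrocytes (1.57) and over all nuclei (1.52). All 4 DMXAA libraries exceeded all 4 vehicle libraries for both genes. Their adaptor Mavs did not pass in microglia (0.28 ± 0.28; edgeR adjusted p = 0.844).

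The other named genes were read mostly from the sum over all nuclei. Irf7, the interferon-inducible relative of Irf3, which overlaps Phrf1, rose from 0.310 to 5.19 CPM over all nuclei (log2 4.05 ± 0.47; edgeR adjusted p = 0.000296) and in ENs (4.30). Zbp1, a sensor of Z-form nucleic acid, rose by 3.30 and Trim56, a ubiquitin ligase of the pathway, by 0.78 over all nuclei. The neutrophil markers given for Cgas moved with these sums and with that of Isg15 below, and their part was not tested. Lrrc8c, a subunit of the anion channel that carries cGAMP, fell by 1.21 on the log2 scale in choroid plexus (60.6 to 28.5 CPM; edgeR adjusted p = 0.0463). Among the products, Ifnb1 had 0 UMIs in all 16 libraries and Cxcl10 64, too few to test. Isg15 rose from 0.733 to 4.42 CPM over all nuclei (2.58 ± 0.50; edgeR adjusted p = 0.0247), with groups that overlapped, and was called in ENs without WT DMXAA replicate 3 (2.78; edgeR adjusted p = 0.0242, 0.584 with it), whereas Ccl5 (0.21 ± 0.36) was not called. In microglia Tank (0.05 ± 0.19), Stim1 (0.31 ± 0.15) and Irf5 (−0.19 ± 0.13) were not called either. Between the vehicle groups Stim1, a calcium sensor that holds STING in the endoplasmic reticulum, was called higher in Ifnar1-/- mice in 8 of 9 classes and over all nuclei, at log2 differences of 0.42 to 0.74, and not in Cajal-Retzius neurons (0.02). These are on the TMM scale. By CPM it was at 77.4 and 93.2 in ENs, 94.9 and 115.7 in INs and 90.8 and 118.9 over all nuclei, WT first. The size of the difference thus rests on the scaling, and that contrast called 49.0%, 39.3% and 48.8% of all genes there. In microglia, where that contrast called 12.8% of all genes, Stim1 was at 160.3 CPM in Ifnar1-/- against 112.0 CPM in WT vehicle libraries (0.63 ± 0.15; edgeR adjusted p = 0.0123).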

How the data were processed

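Nuclei from mouse hippocampus were sequenced with 10x Genomics 3′ chemistry (v3.1 per the labels, v3 in the study's methods), 1 animal per library. The deposited matrices hold raw UMI counts per gene and barcode, not normalized. Per the paper, reads were aligned to mm10 with pre-mRNA counted, and Cell Ranger called the barcodes (3.1.0 and Seurat 3.0 in the processing notes, 6.1.2 in the file headers). Columns mapped to no sample numbered 0.

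Nuclei with 200 to 4000 genes and at most 5% mitochondrial UMIs were kept, as in the study. Doublets were scored per library against artificial doublets, and a share of 0.8% per 1000 nuclei was removed. Clustering (2000 variable genes, 30 components, 20 neighbours, Leiden resolution 0.5, leidenalg 0.10.2) left out the members and listed genes, and classes were named from marker lists, with unnamed clusters holding 8026 nuclei. Border macrophages were the nuclei of a mixed cluster with at least 2 UMIs of their markers and at most 1 of neutrophil markers. The class names were rebuilt here and may differ from those of the study.

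Counts were summed per library and class, keeping libraries with at least 20 nuclei, and tested with edgeR 4.0.16 (TMM, filterByExpr, quasi-likelihood) in 1 fit of all 4 groups. A class was tested when each group kept 2 or more libraries, which left out border macrophages, endothelial, mural and ependymal cells. WT DMXAA replicate 3 did not enter the choroid plexus fit. Checks on simulated data preceded each test. Animals are the replicates, so p-values reflect the spread between animals. Alternatives were DESeq2 1.42.0, limma 3.58.1, other scalings and filters, and leaving out each library. The members and gene lists were chosen with earlier results of these data known. Beyond the 7 members, list genes were named when called in a DMXAA contrast or the interaction (at most 12), with Ifnb1, Irf7, Cxcl10, Ccl5, Isg15, Samhd1, Tank, Stim1, Irf5 and Mavs named whatever their values, and the 3 genes most like Tmem173 and Cgas. Atrip, Malat1, Son and Bcl2l12 were added after their values had been seen. Depth limits Tmem173 outside microglia, and Cgas outside microglia and neurons, to a few counts per library and class.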

Additional observations from a re-analysis of the deposited data

Results flagged for a closer look

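In groups of 4 libraries, a library was marked when its gap to the nearest other, as a share of the group's range, passed Dixon's 95% limit. Of 60 groups examined, 9 were marked, and chance marks about 1 in 20. WT DMXAA replicate 3 accounts for 4 of them, all low: Tmem173 in microglia (22.8 CPM, nearest 85.8), and Irf3 in microglia (17.997, nearest 74.6), in ENs (3.03, nearest 18.5) and over all nuclei (5.003, nearest 27.7).

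For Cgas, WT vehicle replicate 4 was high in microglia (62.4 CPM, nearest 40.8) and low in ENs (1.03, nearest 1.82). Ifnar1-/- DMXAA replicate 3 was high in microglia (44.0 CPM, nearest 32.1), and Ifnar1-/- vehicle replicate 1 was high in ENs (1.81, nearest 1.02). Enpp1 in fibroblasts was high in WT DMXAA replicate 4 (273.0 CPM, nearest 143.0), a library with 60 fibroblast nuclei.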

How the results depend on the processing

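No paired analysis was possible because replicate numbers were given in accession order and pair no animals. The count of members called in WT was 0 under every alternative except without WT DMXAA replicate 3, so that leaving out 1 library gave 0 to 1; in Ifnar1-/- mice and for the interaction it was 0 under all alternatives run (DESeq2, limma-trend, other scalings and filters, resolution 1, 50 nuclei per library, doublets kept). Among the pathway genes called in WT microglia, the count was 5, and leaving out 1 library gave 4 to 9, the highest without WT DMXAA replicate 3. The share of vehicle microglia with a Tmem173 UMI went from 12.8 to 6.73 and 3.44% at 1000 and 500 UMIs per nucleus, and that with a Cgas UMI from 7.14 to 3.59 and 2.20%, since fewer UMIs are read. Microglia were the highest class for both genes under every alternative, at 57.2 to 89.7 CPM for Tmem173 and 32.4 to 45.3 for Cgas. Of 766 values for Ifnar1-/- against WT vehicle, 734 kept their side of the threshold, 24 lost a call and 8 gained one, and 9 of the 33 results were called under every alternative. The calls of Irf3 in oligodendrocytes (edgeR adjusted p = 0.0523) and Enpp1 in fibroblasts (edgeR adjusted p = 0.0503) were each lost without Ifnar1-/- vehicle replicate 2, and that of Irf3 in OPCs without WT vehicle replicate 2 or 4 or Ifnar1-/- vehicle replicate 1, 2 or 3 (edgeR adjusted p 0.0598 to 0.0789). By library totals Cgas over all nuclei (−0.64) and Tbk1 in INs (−0.67) were called as lower. The cause was not tested. Scaling by library totals, and all alternatives for the Ifnar1-/- against WT vehicle contrast and the pathway genes, were chosen after seeing the data.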
